A study of Mus musculus with 26 samples.

Results

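The regions described here are 246 DNA methylation domains of the mouse oocyte genome that lie over transcripts with few or no reads. They come from the study's list of 1146 domains that differed in methylation between the NSN and the SN stage, and their methylation values were not used. A domain was a member when its annotated transcript was a row of the count table and had 3 or more counts in fewer than 9 of the 25 NSN and SN oocytes. The members were thus chosen by their read counts in these same oocytes, and every statement on how low those counts were is a description. Of the 769 listed domains with a transcript identifier, 741 had a transcript in the count table, of which 246 fell under the limit and 495 passed it, and the other 28 were not analysed here. The 246 domains carried 214 distinct transcripts, since 24 transcripts were annotated to 2 or more domains. The 495 passing domains carried 414 transcripts.

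RNA was measured in 26 single fully grown germinal vesicle (GV) oocytes taken from 2 wildtype C57Bl6/Babr mice, C and D, both 12 weeks old. Hoechst staining of the nucleus gave the stage: oocytes without a ring of chromatin around the nucleolus were NSN (non-surrounded nucleolus, n = 9, with 5 from mouse C and 4 from mouse D), oocytes with a full ring were SN (surrounded nucleolus, n = 16, with 9 from mouse C and 7 from mouse D), and 1 oocyte with a partial ring was intermediate. Polyadenylated RNA was sequenced, and the deposited values are raw counts over 38540 transcripts of a published oocyte transcriptome, without molecular identifiers, so a count is a read and not a molecule. Oocytes of 1 mouse are not separate animals, and p-values therefore measure the spread between single oocytes of these 2 mice. Total counts ranged from 1886716 to 2983344 in NSN oocytes and from 1358383 to 3647827 in SN oocytes, and 7 SN oocytes had fewer counts than every NSN oocyte. Of the 16 oocyte markers and 16 granulosa and cumulus cell markers listed for checking the labels, names could be matched to 3 and 2 in the count table, so the cell type was not assessed from them.

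During oocyte growth, DNA methylation is laid down mostly across transcribed gene bodies, where elongating RNA polymerase II is followed by methylation of histone H3 at lysine 36. Stretches of the genome without transcription stay largely unmethylated in the oocyte. The change from NSN to SN chromatin goes along with a global shutdown of transcription, so that the RNA of SN oocytes is mostly RNA made earlier.

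The domains were large compared with promoters, and some of them held one. RefSeq promoter windows, which run from 250 bases before to 50 bases after a transcription start on GRCm38.p6, lay wholly inside 47 of the 246 domains, with 74 distinct windows in all. The dinucleotide CG, which reads the same on both strands and is the main target of DNA methylation in mammals, was counted in each window. CG occurred in 100% of these windows and in 94.6% of the 32817 RefSeq windows of the same length. The windows in the members' domains held a median of 6 CG (quartiles 4 and 13), those in passing domains 15 (quartiles 7 and 29, n = 185 windows) and all RefSeq windows 7 (quartiles 3 and 20). Windows that differed only slightly in position were counted separately, such as those of 1520401A03Rik, with 6 CG each. The windows are thus not all separate promoters, and these medians were not tested. The following windows belong to domains whose transcripts are described below, except that of Ube2j1, which was picked after its value was seen because it held the most CG of a protein-coding gene. Each is written 5′ to 3′ in the direction of its gene, with CG in capitals.
Zfp946, chr17:22423952-22424251, strand +: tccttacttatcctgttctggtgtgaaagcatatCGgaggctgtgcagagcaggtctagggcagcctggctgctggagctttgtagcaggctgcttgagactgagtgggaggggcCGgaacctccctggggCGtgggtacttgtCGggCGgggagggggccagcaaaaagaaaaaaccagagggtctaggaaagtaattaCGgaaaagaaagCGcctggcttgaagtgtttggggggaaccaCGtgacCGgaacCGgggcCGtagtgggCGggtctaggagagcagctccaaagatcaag
Rap1gap, chr4:137724211-137724510, strand +: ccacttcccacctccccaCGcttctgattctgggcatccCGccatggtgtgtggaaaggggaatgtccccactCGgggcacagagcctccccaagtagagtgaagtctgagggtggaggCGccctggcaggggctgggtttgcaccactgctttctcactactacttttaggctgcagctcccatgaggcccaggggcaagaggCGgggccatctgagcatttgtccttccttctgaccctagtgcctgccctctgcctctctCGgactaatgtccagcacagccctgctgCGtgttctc
Rcn3, chr7:45092164-45092463, strand -: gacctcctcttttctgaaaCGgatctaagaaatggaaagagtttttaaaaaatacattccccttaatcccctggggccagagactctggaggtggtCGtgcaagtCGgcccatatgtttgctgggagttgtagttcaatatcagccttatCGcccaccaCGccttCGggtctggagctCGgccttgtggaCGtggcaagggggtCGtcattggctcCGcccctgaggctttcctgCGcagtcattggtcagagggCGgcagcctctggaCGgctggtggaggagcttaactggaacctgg
Plch2, chr4:155010976-155011275, strand -: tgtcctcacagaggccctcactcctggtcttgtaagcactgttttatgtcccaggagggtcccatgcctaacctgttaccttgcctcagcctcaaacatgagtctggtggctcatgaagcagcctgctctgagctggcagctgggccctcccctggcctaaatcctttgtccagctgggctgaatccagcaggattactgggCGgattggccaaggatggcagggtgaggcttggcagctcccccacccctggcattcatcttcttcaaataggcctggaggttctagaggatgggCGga
Olfr1324, chrX:50426445-50426744, strand -: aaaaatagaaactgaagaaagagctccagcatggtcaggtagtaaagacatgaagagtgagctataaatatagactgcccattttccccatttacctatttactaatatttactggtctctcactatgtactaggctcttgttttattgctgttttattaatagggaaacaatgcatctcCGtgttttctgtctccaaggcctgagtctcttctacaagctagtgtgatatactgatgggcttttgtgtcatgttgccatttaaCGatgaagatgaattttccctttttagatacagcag
Ube2j1, chr4:33031130-33031429, strand +: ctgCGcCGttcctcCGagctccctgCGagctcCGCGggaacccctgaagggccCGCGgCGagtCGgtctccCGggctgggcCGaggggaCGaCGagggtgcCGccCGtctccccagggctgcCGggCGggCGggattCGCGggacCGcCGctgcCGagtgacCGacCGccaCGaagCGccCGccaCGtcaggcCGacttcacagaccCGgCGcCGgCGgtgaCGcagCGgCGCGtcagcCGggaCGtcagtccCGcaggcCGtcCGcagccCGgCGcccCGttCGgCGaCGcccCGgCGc

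These windows differed in CG content, which ran from 1 to 57 CG over the 74 windows. The internal Plch2 start and the olfactory receptor gene Olfr1324 had 2 CG each, the internal Rap1gap start had 7, Zfp946 had 12, Rcn3 had 13 and Ube2j1 had 52. The Ube2j1 window lay in a domain of the methylated class, chosen by the study from a published GV oocyte methylome, and the transcript of that domain (TCONS_00073193) had counts in 3 of 9 NSN and 7 of 16 SN oocytes, 20 counts in all.

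Silence and sparse detection made up most of the members' RNA record. No count in any of the 25 oocytes was found for 49 of the 214 transcripts (22.9%, 95% Wilson interval 17.8 to 29.0), called silent below. In a single oocyte a count of 0 allows up to 3 counts. This is 2.21 CPM (counts divided by the library total and scaled to 1000000) in the smallest library. Over the 25 oocytes together, the same limit is 3 counts of 60006844. Among all 21883 transcripts of the table under the same limit, 46.8% were silent, and among all 38540 transcripts, 26.6%. A further 30 members were detected, with at least 1 count, in a single oocyte, 61 in 3 to 9 oocytes and 58 in 10 or more, and none in all 25. The median member was detected in 3 oocytes with 5 counts summed over the 25 oocytes, and the highest sum was 61. In 110 members no oocyte reached 3 counts, and only 11 members had a count of 10 or more anywhere. All members together took 2863 counts of the 60006844 counts of the NSN and SN oocytes. The passing transcripts, by the same rule, had a median of 638 counts and were detected in all 25 oocytes in 299 of 414 cases.

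**Figure D1:**
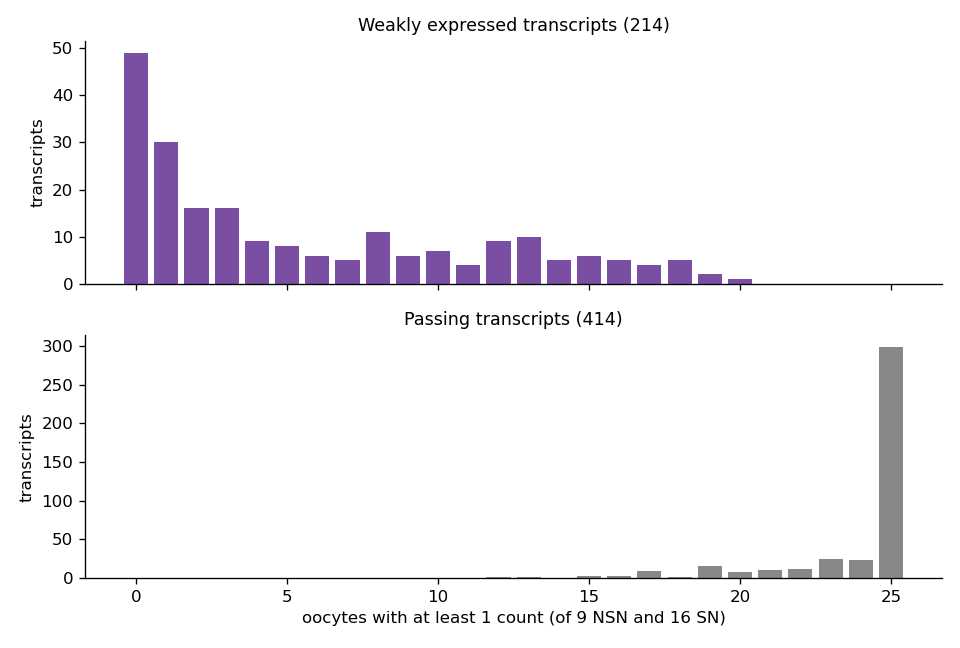
Number of transcripts (vertical axis) by the number of NSN and SN oocytes in which they had at least 1 count (horizontal axis), for the weakly expressed transcripts (top) and the passing transcripts (bottom). The weakly expressed transcripts pile up at 0 oocytes, where 49 of 214 lie, and the passing transcripts at 25 oocytes, where 299 of 414 lie; the limit on counts sets this separation.

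Values at the limit itself were close on both sides. Just inside it stood 7 members with 3 or more counts in 8 oocytes, of which the highest mean counts belonged to TCONS_00026525 (domain inside D130043K22Rik, 61 counts in all), TCONS_00027375 (Ntrk2, the receptor of brain-derived neurotrophic factor, 57 counts), TCONS_00106834 (54 counts), TCONS_00011043 (Pmel, a melanosome matrix protein, 51 counts) and TCONS_00038670 (Basp1, 45 counts). Just outside, with 3 or more counts in 9 oocytes, stood 13 passing transcripts. Of these the lowest mean counts belonged to TCONS_00050795 with 48 counts in all, TCONS_00058352 with 54, TCONS_00039885 (Scube1) with 55, TCONS_00086636 (Cav2) with 61 and TCONS_00054323 with 64. The summed counts of the members and of the passing transcripts nearest to the limit overlapped. The limit is also not neutral to stage: a transcript with 3 or more counts in every NSN oocyte passes it whatever its counts in SN oocytes, and no member had 3 or more counts in every NSN oocyte.

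Detection per oocyte was lower in SN than in NSN oocytes, together with sequencing depth. Of the 214 members, between 41 and 72 were detected in an NSN oocyte (median 56, 55.2 ± 9.08, SD, n = 9) and between 20 and 68 in an SN oocyte (median 40, 44.4 ± 15.4, SD, n = 16). The stages overlapped: 8 of the 16 SN oocytes lay below every NSN oocyte, 8 lay within the NSN range and 0 above it. As a share of all counts, the members took 31.6 to 74.0 CPM in NSN oocytes (median 56.0) and 27.2 to 63.4 CPM in SN oocytes (median 39.4). No test was made on these sums, because the members were chosen from the same counts.

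Depth moved with this difference. The 7 SN oocytes with fewer total counts than every NSN oocyte had 20 to 36 members detected (median 33), the 6 SN oocytes with totals in the NSN range 38 to 58 (median 53.5), and the 3 SN oocytes with more counts than any NSN oocyte 60 to 68 (median 68). With only the 6 SN oocytes of NSN-like depth, the medians were 56 in NSN and 53.5 in SN oocytes. With every library drawn down to the 1358383 counts of the smallest, the medians were 40 (30 to 48) in NSN and 33.5 (20 to 48) in SN oocytes, and 5 SN oocytes lay below every NSN oocyte. Within mouse C the medians were 57 and 51, and within mouse D 51 and 38. Transcripts under the limit as a whole moved the same way, with a median of 16.4% of 21883 detected per NSN oocyte and 10.96% per SN oocyte. In the 6 SN oocytes of NSN-like depth, 10.7% (D-13) to 14.6% (D-9) of these 21883 transcripts were detected. The NSN oocytes ranged from 12.9% to 18.9%. This difference at like depth was not tested. Of the passing transcripts, 385 to 410 of 414 were detected in NSN oocytes (median 399) and 376 to 413 in SN oocytes (median 393.5), but the limit puts these near the ceiling, so nothing is read from how little they differed. Fewer RNA molecules per oocyte and lower capture or sequencing depth cannot be told apart in these counts.

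**Figure D2:**
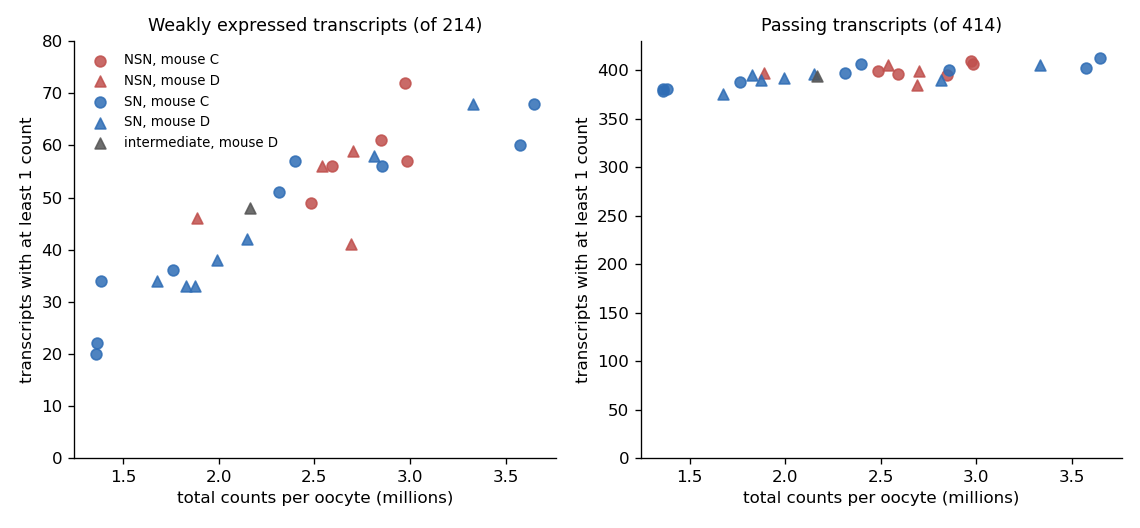
Transcripts with at least 1 count in each oocyte (vertical axis) against the total counts of that oocyte, in units of 1000000 (horizontal axis), for the 214 weakly expressed transcripts (left) and the 414 passing transcripts (right); each point is 1 oocyte, its colour the stage and its shape the mouse. Detection of the weakly expressed transcripts runs from 20 in the smallest SN library to 60 to 68 in the 3 deepest SN libraries. The passing transcripts lie between 376 and 413 of 414, near the ceiling that the limit on counts sets for them.

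By stage, most detected members were found on both sides. Of the 165 members with a count, 120 had counts in both stages, 17 in NSN oocytes only and 28 in SN oocytes only, out of 9 NSN and 16 SN oocytes. As shares of the detected members these last were 10.3% and 16.97%, while among all 11649 detected transcripts under the limit 18.1% had counts in NSN oocytes only and 15.6% in SN oocytes only. The share of oocytes with a count was higher in NSN for 105 members (63.6%) and higher in SN for 60 (36.4%). Among all detected transcripts under the limit, the share was higher in NSN for 64.9% and in SN for 35.1%. Counts came from both mice for 117 of the 165 members, from mouse C only for 32 and from mouse D only for 16.

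**Figure D3:**
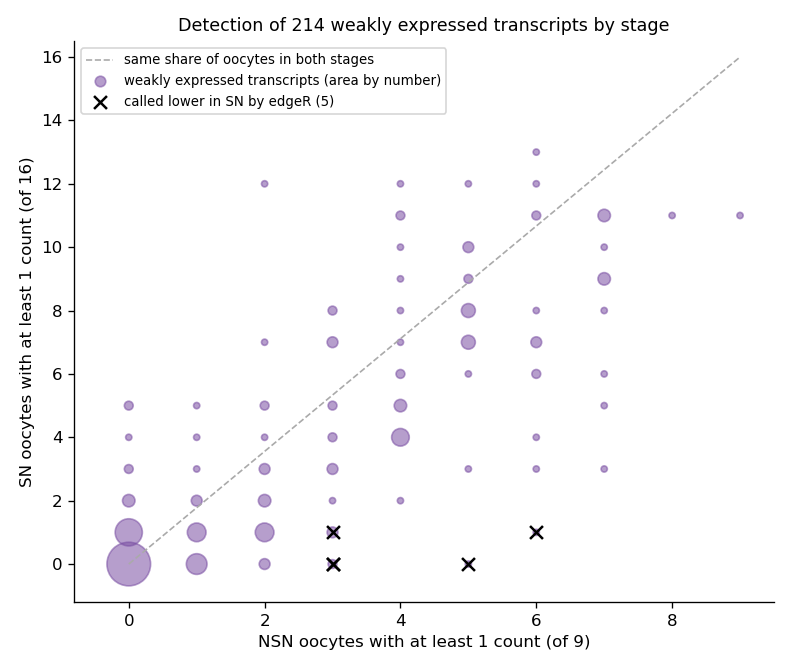
SN oocytes with at least 1 count (vertical axis, of 16) against NSN oocytes with at least 1 count (horizontal axis, of 9) for the 214 weakly expressed transcripts; the area of a circle grows with the number of transcripts at that place, the dashed line marks the same share in both stages, and crosses mark the 5 transcripts that edgeR called lower in SN, of which 2 share a place. The largest circle holds the 49 silent transcripts, and 105 transcripts lie below the line and 60 above it.

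Stage differences were then tested transcript by transcript over the whole table. For counts this was the quasi-likelihood test of edgeR, on the 24291 transcripts that had a count in at least 3 oocytes, with p-values adjusted over all of them. This includes 119 of the 214 members, and the other 95, of which 49 were silent, were too sparse to be tested. Of the 119 members tested, 5 were called lower in SN (4.20%) and 0 higher. Of all tested transcripts, 8.3% were called lower and 3.01% higher, 11.3% in either direction. Of the 7634 tested transcripts under the limit, 8.33% were called lower and 0.51% higher. The difference between these shares was not tested, and the limit that chose the members bears on them. At an unadjusted p under 0.05 in edgeR, 9 of the 119 members were lower and 5 higher in SN. Of the 24291 transcripts, 3786 were lower and 2115 higher, and of the 7634 under the limit, 1250 and 319. The median fitted log2 change from NSN to SN was -0.27 over the members tested, -0.32 over all tested transcripts under the limit, -0.05 over all tested transcripts and 0.03 over the passing transcripts. Of the 414 passing transcripts, 20 were called lower (4.83%) and 17 higher (4.11%).

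The 5 calls rested on 5 to 14 counts each. TCONS_00011442, whose domain of 43819 bp on chromosome 10 (chr10:15105349-15149167) overlapped no protein-coding gene, had 10 counts in NSN oocytes (lowest 0, median 1, highest 5) and 1 count in 1 of 16 SN oocytes. Its counts per total were 15.3 times higher in NSN (exact 95% interval for counting error 2.18 to 665), and the edgeR log2 change was -2.63 (SE 0.68, adjusted p = 0.00807). It was detected in 6 of 9 NSN oocytes, from both mice. Without the NSN oocyte D-14, which held 5 of the 10 NSN counts, the call was lost (edgeR adjusted p = 0.114).

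TCONS_00095326 (chr7:121555875-121588709, a methylated domain that overlaps the noncoding gene 4933432K03Rik) had 12 NSN counts, of which 9 came from the NSN oocyte D-11, and 2 SN counts in 1 oocyte. The ratio was 9.20 (2.05 to 84.6) and the edgeR log2 change -2.67 (SE 0.83, adjusted p = 0.0297). Without oocyte D-11 the log2 change was -0.92 with an edgeR adjusted p of 0.592, and the call was lost.

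The other calls had no SN count at all. They entered the test through NSN oocytes alone, and the 3 tested members without an SN count were all called, so that their presence in the test already required a difference. TCONS_00010641 (chr10:118248388-118253984, no protein-coding gene) had 2, 2 and 4 counts in 3 NSN oocytes of mouse D (edgeR adjusted p = 0.0193, and 0.0678 without D-34). Per total counts these were 4.09 times a limit of 3 counts over all SN oocytes. This fold takes the NSN counts as exact, as do those that follow, so none is a lower bound. TCONS_00002740 (chr1:134004234-134008279, no annotated gene) had 1 count in each of 5 NSN oocytes of both mice, 2.55 times that limit (edgeR adjusted p = 0.0286, and 0.0502 without C-8 or 0.0557 without D-34). TCONS_00088613 had 5 counts in 3 NSN oocytes of mouse C, also 2.55 times that limit (edgeR adjusted p = 0.0386, and 0.0999, 0.0542 or 0.102 without C-3, C-7 or C-8). Its domain, chr6:124837385-124844773, held the start of Gnb3, a G protein beta subunit, and reached into P3h3, a collagen prolyl hydroxylase. In each of these 5 transcripts the stages overlapped, because some NSN oocytes had 0 counts, and in each the call rested on single libraries.

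Fewer calls were left when the mouse was taken as a block beside the stage: 3 of the 5 in edgeR, with TCONS_00095326 at an adjusted p of 0.137 and TCONS_00088613 at 0.0537. The strictest filter asked for counts in at least 9 oocytes and took in 64 members. None of the 5 calls could enter it, since they were detected in 3 to 7 oocytes. Of the 64, edgeR called 0, with 3 at an unadjusted p under 0.05. DESeq2 called 0 members, with 2 at an unadjusted p under 0.05. It gave 53 of the 119 members no adjusted p, among them all 5 edgeR calls. The matching numbers of calls over all tested transcripts are not given for these alternatives. The numbers of members called are therefore not read as particular to the members.

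Presence against absence, tested per transcript with Fisher's exact test over the same 24291 transcripts, called 0 of the 119 members, and it called 0.0576% of all tested transcripts, each with the higher share in NSN oocytes. Of the 7634 tested transcripts under the limit, Fisher's exact test called 12. At an unadjusted p under 0.05 in this test there were 8 of the 119 members, 1072 of the 24291 transcripts and 905 of the 7634. The smallest p-values belonged to TCONS_00002740, in 5 of 9 NSN and 0 of 16 SN oocytes, and to TCONS_00011442, in 6 and 1 (both adjusted p = 0.298, two-sided Fisher's exact test). TCONS_00103235, over the noncoding gene Gm5122, was present in 6 of 9 NSN and 3 of 16 SN oocytes (adjusted p = 0.938, Fisher's exact test).

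In the opposite direction, the most uneven member was TCONS_00059809, with 4 domains inside Cacna1b, the pore-forming subunit of the N-type calcium channel. It was detected in 2 of 9 NSN oocytes, with 4 and 3 counts, and in 12 of 16 SN oocytes (lowest 0, median 1.5, highest 13 counts). The stages overlapped and neither test called it (edgeR log2 change 1.85, SE 0.82, adjusted p = 0.142; Fisher's exact test adjusted p = 0.742). TCONS_00038990, in Angpt1, a ligand of the endothelial receptor Tie2, was detected in 4 NSN and 12 SN oocytes. The 3 members named next had 0 NSN counts: TCONS_00075009, with 8 counts in 5 SN oocytes, TCONS_00045099, with 7 counts in 5 SN oocytes, and TCONS_00071854, with 10 counts in 4 SN oocytes. Set against 3 counts over all NSN oocytes and scaled to total counts, their SN counts were 1.74-fold, 1.52-fold and 2.17-fold higher. These folds take the SN counts as exact and are no lower bounds. The edgeR adjusted p-values were 0.0546, 0.0620 and 0.0553. These transcripts entered the test through SN oocytes alone, so their presence in the test already required a difference. No rise in SN is read from these p-values. Of the 5 tested members with 0 NSN counts, 0 were called. The domain of TCONS_00045099 is the one that holds the Zfp946 window printed above, and that of TCONS_00071854 holds the Rap1gap window.

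**Figure D4:**
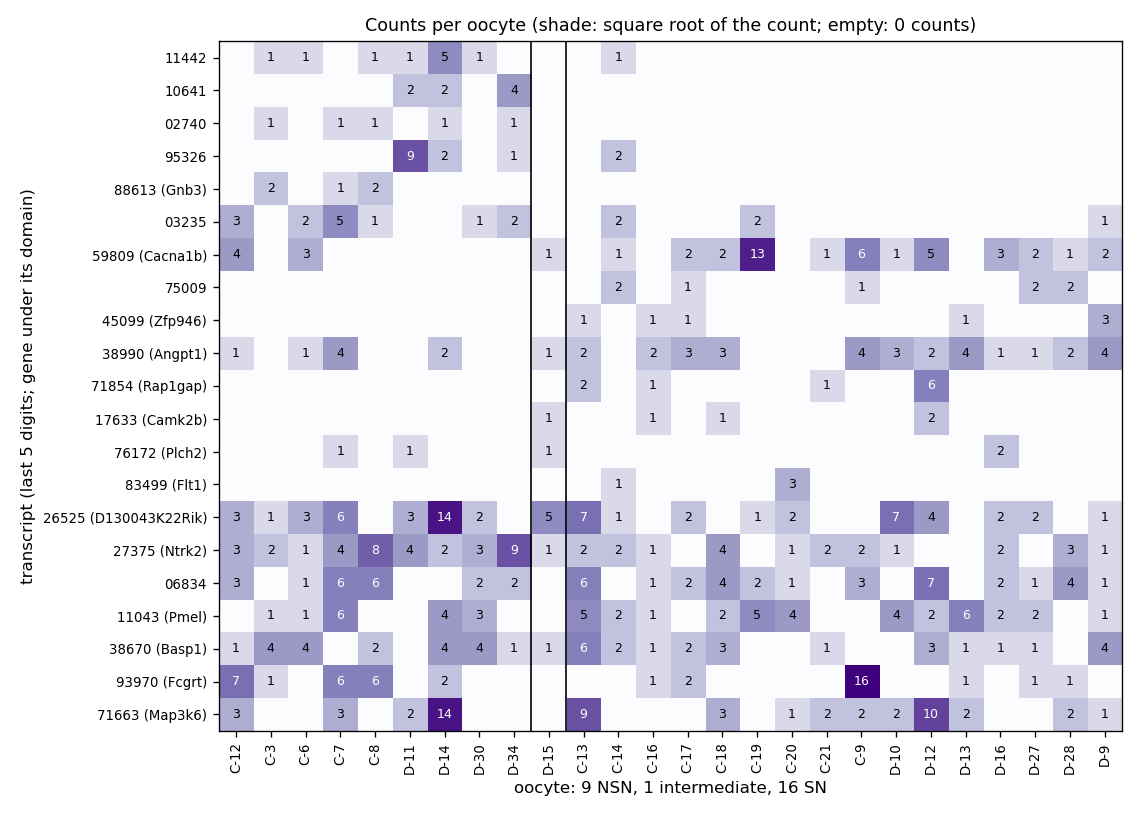
Counts of members named by the fixed rules (rows, by the last 5 digits of the identifier, with a gene under the domain where there is one) in every oocyte (columns: 9 NSN, the intermediate oocyte, 16 SN); the shade is the square root of the count and empty cells are 0 counts. The first 5 rows are the edgeR calls, with counts almost only among NSN oocytes, while TCONS_00059809 (Cacna1b) has counts in 12 SN and 2 NSN oocytes.

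Single high counts were rare and were seen in either stage. The highest single count of any member was 16, in the SN oocyte C-9, for TCONS_00093970, whose domain holds the starts of Rcn3, a calcium-binding protein of the endoplasmic reticulum, and Fcgrt, the neonatal Fc receptor. This transcript had 22 counts in NSN oocytes (lowest 0, median 1, highest 7) and 22 in SN oocytes (lowest 0, median 0, highest 16). TCONS_00071663, in the kinase gene Map3k6, had 14 counts in the NSN oocyte D-14 and 10 and 9 in the 2 highest SN oocytes. The stages overlapped for both transcripts.

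Several genes were covered by more than 1 domain of the same transcript. TCONS_00017633 was annotated to 4 adjoining domains that run through Camk2b, a calcium and calmodulin dependent kinase of neurons, from chr11:5976961-5980140 to chr11:6000885-6045050, alternating between the intermediate and the unmethylated class. It had 4 counts in 3 SN oocytes and 0 in NSN oocytes. TCONS_00076172 had 4 domains in Plch2, a phospholipase C gene, and 4 counts, in 2 NSN oocytes and 1 SN oocyte. TCONS_00083499 had 3 adjoining domains in Flt1, a receptor of vascular endothelial growth factor, and 4 counts in 2 SN oocytes. Rap1gap, which codes for an inactivator of the small GTPase Rap1, carried domains of 2 member transcripts, TCONS_00071854 and the silent NOMERGE_TCONS_00001221. Passing domains also overlapped Plch2 and Rap1gap.

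Some of the genes under the domains were grouped by their known role. These groups were put together after the counts had been seen, cover only part of the genes under the members and were not compared with the passing domains, and an overlap does not show that the transcript belongs to the gene, since the count table gives neither position nor strand. The 21 genes of neuronal signalling, synapses and ion channels carried 32 domains and 22 transcripts. Of these, 2 were silent, 15 were detected in both stages, 5 in SN oocytes only and 0 in NSN oocytes only. Over all 165 detected members, 28 had counts in SN oocytes only and 17 in NSN oocytes only. Among all detected transcripts under the limit these shares were 15.6% and 18.1%. The groups were not tested against these shares, and nothing is read from the stage numbers. In this group, TCONS_00088842 over Grin2b, an NMDA receptor subunit, had 2 counts, all in SN oocytes. TCONS_00027375 over Ntrk2 was at the other end with 36 counts in NSN oocytes (lowest 1, median 3, highest 9) and 21 in SN oocytes (lowest 0, median 1, highest 4), which edgeR did not call (log2 change -1.28, SE 0.52, adjusted p = 0.108). It was the only member detected in every NSN oocyte.

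The 14 genes of lineage transcription factors carried 14 transcripts. Of these, 1 was silent, 10 were detected in both stages, 3 in SN oocytes only and 0 in NSN oocytes only. TCONS_00060278 over Nr5a1, a regulator of steroid-producing cells, had 49 counts, TCONS_00071092 over Tal1, of blood cell precursors, 37, and TCONS_00014522 over Ikzf1, of lymphocytes, 19. TCONS_00087592, with 2 domains in Tcf7l1, a mediator of Wnt signalling, was the silent one. The 8 extracellular matrix genes carried 8 transcripts with a median of 2 counts, and those over Col1a1, the main fibrillar collagen chain, and Adamtsl4 were silent. Among 7 growth factor and receptor genes, the transcripts over Wnt11, Fgf18 and Fgfr2 were silent. The domain over Fgfr2 (TCONS_00092265) also overlapped Btbd16 and held promoter windows of Btbd16. In these 4 groups no transcript was called by edgeR, with 14, 9, 3 and 2 tested. Over all 119 members tested 4.20% were called, and over all tested transcripts 11.3%. With so few tested per group, nothing is read from the absence of calls.

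Silent members were found in each kind of place and class. They made up 17 of 93 transcripts with a domain inside a protein-coding gene (18.3%), 14 of 51 partly in one (27.5%), 6 of 21 over a long noncoding RNA gene only (28.6%) and 11 of 46 with no annotated gene (23.9%). By methylation class they made up 29 of 132 transcripts in intermediate domains (22.0%), 15 of 64 in methylated domains (23.4%) and 9 of 31 in unmethylated domains (29.0%). The domains of silent transcripts had a median length of 13089 bp (n = 55), and those of detected members 8541 bp (n = 191). The longest domain of a silent transcript, TCONS_00108919, spanned 114594 bp of the X chromosome (chrX:50371507-50486100) and held the Olfr1324 start printed above. It was followed by TCONS_00063506, with 60779 bp on chromosome 3 and no annotated gene, and TCONS_00029610, with 59646 bp on chromosome 13 over the noncoding gene 4931429P17Rik. The silent TCONS_00025296 lay under a domain with the start of Oog1, an oocyte-expressed gene of a family with near-identical copies. Only 0.19% of that domain lay in exons of protein-coding genes. How reads from such copies were counted was not tested.

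Set beside the passing domains, the members lay less often in genes. A protein-coding gene of GENCODE M21 overlapped 166 of 246 domains (67.5%), against 442 of 495 passing domains (89.3%). No annotated gene of any kind lay in 49 domains (19.9%), against 34 (6.87%), and a long noncoding RNA gene alone in 22 (8.94%), against 11 (2.22%). The start of a protein-coding gene lay in 34 domains (13.8%), against 98 (19.8%). Regions are not replicates, and these shares were not tested.

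**Figure D5:**
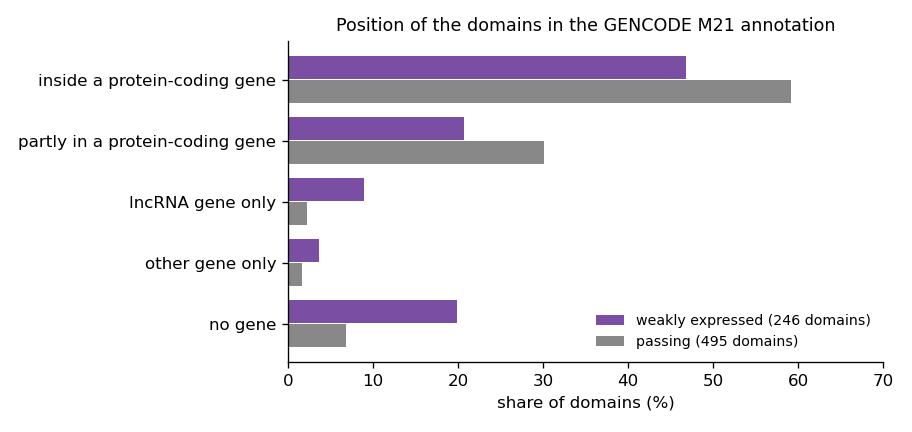
Share of domains in percent (horizontal axis) in each kind of place of the GENCODE M21 annotation (vertical axis), for the 246 domains over weakly expressed transcripts and the 495 passing domains. Domains with no annotated gene make up 19.9% of the former and 6.87% of the latter.

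The 2 sets of domains were also set side by side in length and class, with no test. The median length was 8971.5 bp (quartiles 4843 and 20273) for the members and 10333 bp (quartiles 5569 and 22147) for the passing domains. Intermediate domains made up 147 of the members' 246 (59.8%) and 273 of the 495 passing domains (55.2%). Methylated domains made up 67 (27.2%) and 180 (36.4%), and unmethylated domains 32 (13.01%) and 42 (8.48%). Another listed domain adjoined 31 of the members (12.6%) and 37 of the passing domains (7.475%). A transcript carried at most 4 domains among the members and at most 16 among the passing domains. Of the members' domains, 12 (4.88%) lay in a protein-coding gene that a passing domain also overlapped. None of the 25 genes of the DNA methylation and histone machinery and none of the 38 imprinted genes on the lists used lay under a member domain or a passing domain.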

How the data were processed

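Transcriptomes came from 26 individual GV oocytes of 2 mice. Per the study's methods and labels, reads were trimmed (TrimGalore), mapped to the GRCm38 assembly (HISAT2 2.1.0) and quantified in SeqMonk on features of an oocyte transcriptome. The authors deposited the resulting raw counts, which are not normalized. Strand use in the counting is not given in the sources used here. The deposited DESeq2 comparison, with mean signals, log2 fold changes and p-values, was not used. Of the study's domain list, only position, class and transcript were read. Oocytes were grouped by their labels, and the count table held 0 other sample columns.

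The members and gene lists were chosen with earlier results of these data known. Counts were tested with edgeR 4.0.16 (TMM, quasi-likelihood, stage only, Benjamini-Hochberg, threshold 0.05) in R 4.3.3, over transcripts with at least 1 count in at least 3 oocytes, since the limit of 3 counts in 9 oocytes would remove every member. Detection was tested with Fisher's exact test (scipy 1.17.1). Both tests were checked on simulated data, which were not restricted to transcripts as sparse as the members. DESeq2 1.42.0, other scalings, filters, the mouse as a block and oocytes left out in turn were alternatives. Stages share the 2 mice, so the mouse pairs them. Downsampling drew counts once without replacement. Ratio intervals and the limit of 3 counts cover counting error only. Folds against that limit take the observed counts as exact. Domains were placed in GENCODE M21 on GRCm38, and promoter sequences are RefSeq's on GRCm38.p6.

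Named are members called by either test (or the 5 with the smallest Fisher p each way, where none was called), the 5 with the most domains, 5 on each side of the limit, the 5 with the highest count, and the 3 longest silent domains. No member transcript had a gene symbol in the names used. Other members were named after their values were seen. A few members under these rules are not reported here.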

Additional observations from a re-analysis of the deposited data

Results flagged for a closer look

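A single NSN oocyte stood apart from the other 8 NSN oocytes by Dixon's test in 7 of 23 values examined. The nominal rate of 1 in 20 does not hold for these values. These were total counts, at 1886716 in D-11 with the next at 2483953, and the counts of 6 transcripts. In D-14, TCONS_00011442 had 5 counts (next 1), TCONS_00026525 had 14 (next 6) and TCONS_00071663 had 14 (next 3). D-11 had 9 counts of TCONS_00095326 (next 2), D-34 had 4 of TCONS_00010641 (next 2), and C-7 had 4 of TCONS_00038990 (next 2). Sparse counts, in which most oocytes are at 0, pass this test easily. TCONS_00026525 and TCONS_00071663 had also been named for a high count in 1 oocyte, so nothing is read from the number flagged.

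No member had a stage difference that differed between the mice past the threshold (edgeR interaction of mouse and stage, 0 of 119, with 11 at an unadjusted p under 0.05). The share over all tested transcripts is not given here, so these numbers are not read as particular to the members.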

How the results depend on the processing

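The number of domains was 207 or 291 with 2 or 5 counts in the limit and 221 or 262 with fewer than 7 or 11 oocytes. The share of silent members was 45.3% when up to 3 summed counts were taken as silent, and 22.4% per domain. The NSN median of members detected exceeded the SN median by 16, by 12.5 at 2 or more counts, by 6.5 at 3 or more counts, by 6.5 after downsampling, by 6 within mouse C, by 13 within mouse D, and by 2.5 with only the SN oocytes of NSN-like depth, an alternative chosen after seeing the data. The direction was the same in all of these.

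Of the 5 edgeR calls, 5 were made with either other scaling. There were 9 calls with no filter (7 lower, 2 higher) and 0 with a count in at least 9 oocytes. None of the 5 could enter that last filter. There were 3 with the mouse as a replicate block, 0 within mouse C, 1 within mouse D and 0 with DESeq2. TCONS_00095326 turned to a log2 change of 1.43 within mouse C (edgeR adjusted p = 0.452). The cause of these changes was not tested, apart from the fewer members tested under the filter. Leaving out 1 oocyte gave 3 to 7 calls, none of the 5 transcripts was called in every such fit, and a member was called higher in SN in 6 of 25. The lowest, 3, was without the NSN oocyte D-34. Fisher's exact test called 0 members at 2 or 3 counts, after downsampling and with no filter. With a median of 5 counts per member summed over the 25 oocytes, few counts stand behind each of these values. The matching numbers of calls over all tested transcripts are not given for these alternatives.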

Other observations

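The intermediate oocyte, D-15 of mouse D, had 2163635 total counts and 48 of the 214 members detected, a value within the range of both stages. None of the 49 silent members had a count in it. Of the 5 members called lower in SN, each was at 0 counts in this oocyte. TCONS_00026525 had 5 counts there, and TCONS_00059809 and TCONS_00017633 had 1 each. With 1 such oocyte there is no replicate of the intermediate stage.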
